A study of Mus musculus with 18 samples.

Results

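The comparison described here is that of granulocyte-monocyte progenitors (GMPs) labelled Tsc2 KO with GMPs labelled Tsc2 fl/fl, 3 mouse libraries a side, 6 of the 18 libraries of the series. Members were chosen by sample title, because a genotype field of the same samples names Raptor. Each library was made by SmartSeq2, a low-input RNA sequencing method, from 10000 bone marrow cells sorted as c-kit+ and FcγRII/III+ cells with low CD34 and low Ly6C and without Sca-1, CD127 or CD135. The stain also held a lineage panel and CD115. Tsc2 fl/fl cells carry Tsc2 alleles flanked by loxP sites, and Tsc2 KO cells are those labelled as having lost the gene. Both groups are GMPs of the same gate, and the labels give no drug, infection or transplant for them. The Cre driver, the deleted exons and the age of the mice are not given in the sources used here. Nor do they say whether the 3 replicates of a group were all separate mice. The p values thus measure the spread between these libraries, which may be technical in part. The other libraries used are 3 Raptor fl/fl and 3 Raptor KO GMP libraries sorted in the same way. They served to estimate the spread and as the second knockout in a comparison of effects.

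Tsc2 encodes tuberin, which joins hamartin (Tsc1) in a complex that switches off the small GTPase Rheb. Active Rheb turns on mTORC1, a kinase complex that raises protein, lipid and nucleotide synthesis and restrains autophagy and the lysosome regulators TFEB and TFE3. Raptor is the subunit that defines mTORC1, so the Tsc2 and Raptor deletions act on opposite sides of the same kinase. GMPs are the marrow cells that give rise to neutrophils, monocytes and, through related progenitors, basophils and mast cells.

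The Tsc2 line held 2.48 to 3.47 M fragments a library, and between 11854 and 12211 genes reached a value of 1. Each value is a gene's fragment number after division by the size factor of its library, called signal units below. Replicate 2 of both groups carried Y-linked transcripts (summed signal 385 in fl/fl and 318 in KO), and the other 4 libraries of the line had 0. Xist, a transcript of female cells, was 1.7 and 1.4 in replicate 2 of fl/fl and KO and between 1238.5 and 3411.7 in the other 4. Replicate 2 of each group thus came from male cells and the others from female cells. Within each group replicate 2 therefore came from another mouse than replicates 1 and 3. Whether replicates 1 and 3 were separate mice cannot be told from this. The libraries did not separate cleanly along every axis. KO replicate 1 and fl/fl replicate 2 lay between the other libraries on the first principal component, which held 51.6% of the variance, at 9.2 and -17.4, against -66 and -45.8 for the other fl/fl libraries and 64.1 and 55.9 for the other KO libraries. Within groups, the median SD of log2 values was 0.326 in Tsc2 fl/fl and 0.294 in Tsc2 KO, against 0.275 and 0.257 in the Raptor groups. The fit on all 12 GMP libraries therefore lends the Tsc2 line a smaller spread than its own. For that reason counts are given for the fit on 12 libraries and, beside it, for a fit on the 6 Tsc2 libraries alone, and a gene is said to have passed throughout when it passed in both and in each of the 6 fits that left out 1 Tsc2 library.

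Tsc2 itself was 269, 235 and 241 signal units in the fl/fl libraries and 103, 99.03 and 83.0 in the KO libraries. The groups did not overlap. The log2 fold change was -1.38 (SE 0.18, limma adjusted p = 1.9e-04, and 0.00676 with the 6 libraries alone), and Tsc2 passed throughout. The table sums fragments over a whole gene, so transcripts that lack the deleted part and intact transcripts of undeleted cells cannot be told apart.

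Of 21 genes of the TSC and mTOR complexes tested, 1 rose and 1, Tsc2, fell. The gene that rose was Eif4ebp1, which encodes the translation repressor 4E-BP1 that mTORC1 phosphorylates. It was 313, 370 and 384 in fl/fl and 526, 767 and 806 in KO, without overlap (log2 fold change 0.95, SE 0.20, limma adjusted p = 0.00514), and it passed throughout. Of 28 nutrient sensors and other regulators that act upstream of mTORC1, 5 rose and none fell (3 rose with the 6 libraries alone, and 1 to 7 without 1 library). In these 2 lists 9.52% and 17.9% of the genes were called, against 14.2% over all genes tested. Ddit4 (REDD1), a stress-induced brake on mTORC1, rose from 13.0, 15.2 and 23.5 to 53.03, 108 and 72.6 (log2 fold change 2.09). Flcn (folliculin), which with its partners controls the Rag GTPases at the lysosome, rose from 114, 135 and 103 to 172, 188 and 277. Lamtor3, a part of the Ragulator scaffold on the lysosome, rose from 114, 162 and 106 to 224, 210 and 228. None of these 3 passed throughout: Ddit4 did not pass without KO replicate 2 or 3 or fl/fl replicate 1 (limma adjusted p up to 0.0741), Flcn without KO replicate 3 or fl/fl replicate 3 (up to 0.0906), and Lamtor3 without fl/fl replicate 3 (0.0518).

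Over the whole transcriptome, 12097 of 22787 genes reached a value of 1 in at least 3 of the 6 libraries and were tested. Of these, 1722 passed at a limma adjusted p under 0.05, or 14.2%: 741 rose (6.13%) and 981 fell (8.11%). A change of at least 2-fold was seen in 326 of those that rose and 718 of those that fell. With the 6 Tsc2 libraries alone 471 passed (3.89%), 233 higher (1.93%) and 238 lower (1.97%), and 462 of them were among the 1722 with the same direction. The count was 677 without KO replicate 2, 628 without KO replicate 3, 708 without fl/fl replicate 1 and 909 without fl/fl replicate 3. It rose to 2539 without KO replicate 1 and to 2320 without fl/fl replicate 2, the 2 libraries that lay between the groups. Where a range without 1 library is given for a list below, the low end came without KO replicate 2 or 3 and the high end without KO replicate 1 or fl/fl replicate 2, other than for the high ends of the membrane and pump list (fl/fl replicate 3) and of the B lymphoid and dendritic cell lists (KO replicate 2). In some lists other libraries gave the same low or high count. In the primary granule list, for example, the low end was also reached without fl/fl replicate 1 or 3. In all, 374 genes passed throughout, 152 higher and 222 lower. Among all genes tested, the KO libraries lay wholly above the fl/fl libraries in 15.7% and wholly below in 13.9%, or without overlap in 29.7%.

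**Figure D1:**
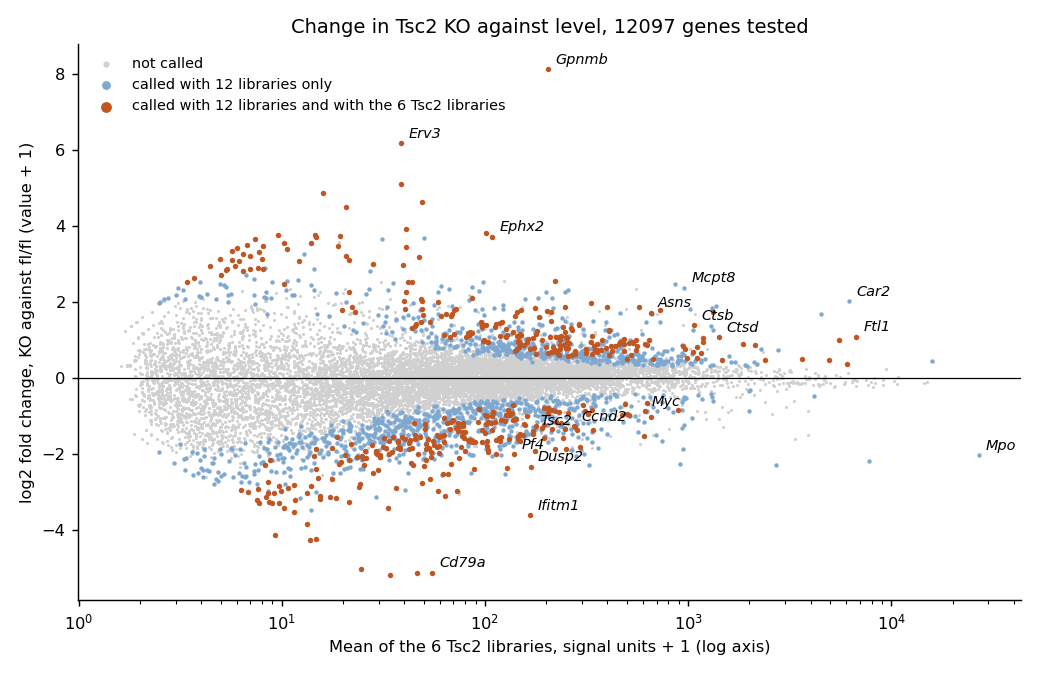
Mean of the 6 Tsc2 libraries in signal units plus 1 (log axis) against the log2 fold change of Tsc2 KO over Tsc2 fl/fl for the 12097 genes tested, grey where not called, blue where called with 12 libraries only and orange where also called with the 6 Tsc2 libraries. Gpnmb stands at 8.13 and Ifitm1 at -3.60, while the abundant Mpo, at -2.02, is called with 12 libraries only.

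Several genes of lysosome-rich phagocytes were among the 12 named for the highest fold changes. Others of the 12 have other roles. The endogenous retroviral gene Erv3 was listed at 0 in the 3 fl/fl libraries and at 47.1, 80.5 and 98.5 in KO. The imprinted gene Phlda2 rose from 0, 3.38 and 10.4 to 72.9, 101.1 and 99.3 (log2 fold change 4.63), and the formin-related gene Fhdc1 from 1.73, 12.7 and 0.941 to 26.5, 123.1 and 73.3 (3.92). Gpnmb, a transmembrane glycoprotein of macrophages and osteoclasts, was 0, 1.69 and 0 in fl/fl and 259, 535 and 426 in KO. Lgals3 (galectin-3), a lectin that binds damaged lysosomes, was 5.202, 16.1 and 19.8 in fl/fl and 158, 194 and 206 in KO (log2 fold change 3.84, SE 0.43, limma adjusted p = 8.7e-05). Atp6v0d2, a subunit of the lysosomal proton pump best known from osteoclasts and macrophages, was listed at 0 in all 3 fl/fl libraries and at 41.8, 18.6 and 28.9 in KO. The complement genes C1qb and C1qc had at most 5.202 in fl/fl and between 25.2 and 99.3 in KO. Gpnmb, Lgals3, C1qb and C1qc passed throughout without overlap, but of these only Lgals3 reached a value of 1 in all 3 fl/fl libraries. Gpnmb, C1qb and C1qc, like Atp6v0d2, Erv3, Phlda2 and Fhdc1, met the filter on low values only with the KO libraries. They are therefore to be read by their values rather than by the test, and Atp6v0d2 and Erv3 are given by their values alone. Of 27 macrophage and phagocyte genes tested, 12 rose and 1, the tetraspanin gene Cd9, fell (9 and 0 with the 6 libraries alone), with a median log2 fold change of 1.55 against -0.005 over all genes tested. Without 1 library the number that rose was 7 (without KO replicate 3) to 12. Mean log2 levels of the list were 3.52, 2.89 and 3.30 in fl/fl and 5.17, 4.96 and 5.21 in KO, so that KO replicate 1 lay with the other KO libraries here. The count, the median and these means include Gpnmb, C1qb and C1qc, which were tested only because of their KO values. List members low in both groups were left out of the test, so these list values are descriptive. Not all markers followed: the scavenger receptor gene Marco was at 0 in all 6 libraries, and Csf1r, the receptor of macrophage colony-stimulating factor and a monocyte marker, was 163, 54.1 and 199 in fl/fl and 118, 27.5 and 67.4 in KO (limma adjusted p = 0.273). In bulk RNA, fewer or more cells of a type and less or more RNA per cell cannot be told apart.

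**Figure D2:**
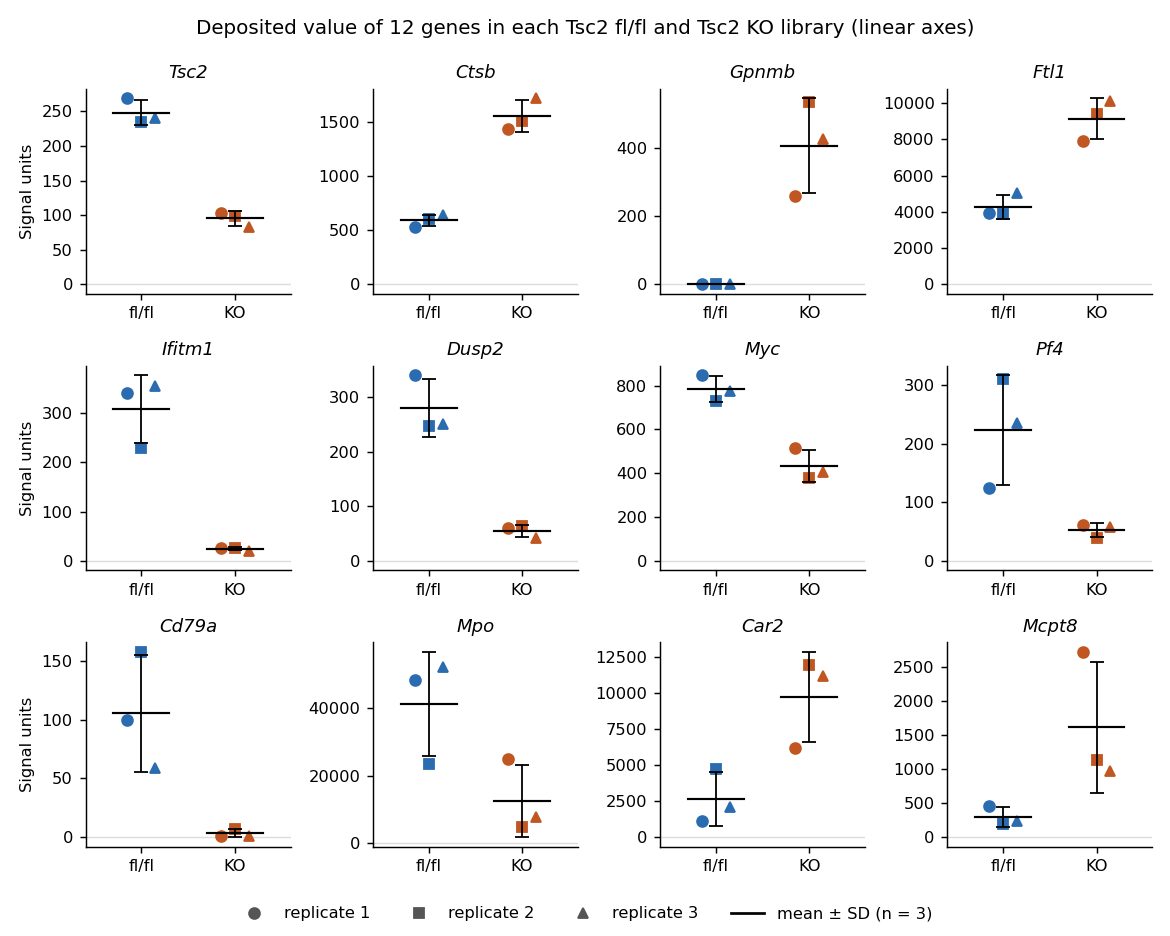
Signal units (linear axes, 1 panel a gene) of 12 genes in the 3 Tsc2 fl/fl (blue) and 3 Tsc2 KO (orange) libraries, with circles, squares and triangles for replicates 1, 2 and 3, and the mean and SD in black. Tsc2, Ctsb, Gpnmb, Ftl1, Ifitm1, Dusp2, Myc and Cd79a leave a gap between the groups, while for Mpo the fl/fl replicate 2 (23511) lies below the KO replicate 1 (24793).

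The rise took in part of the lysosome. Of 37 lysosomal proteases and other hydrolases, 11 rose and 4 fell (9 and 0 with the 6 libraries alone). The 11 that rose became 8 to 11 without 1 library, while the 4 that fell became 0 without any 1 of 4 libraries and 10 without KO replicate 1. The median of the list was 0.13, and 22 of the 37 passed in neither direction. Cathepsin B (Ctsb) was 532, 600 and 640 in fl/fl and 1440, 1508 and 1719 in KO (log2 fold change 1.40, SE 0.12, limma adjusted p = 5.5e-06). Cathepsin D (Ctsd) was 855, 933 and 942 in fl/fl and 1741, 2104 and 1975 in KO (1.09, SE 0.11, limma adjusted p = 1.5e-05). Psap, the precursor of the saposins that help lysosomal lipid breakdown, was 332, 300 and 378 in fl/fl and 677, 594 and 610 in KO (0.90). These 3 passed throughout and left a gap between the groups. Ctss (cathepsin S), a protease of antigen-presenting cells on the monocyte list, rose from 107, 51.6 and 75.2 to 308, 270 and 241 (1.85) and also passed throughout. Cathepsin E (Ctse), an intracellular aspartic protease, did not: it was 310, 1168 and 441 in fl/fl and 1434, 2657 and 2162 in KO, with a limma adjusted p of 0.0285 that rose to 0.106 without 1 library.

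The lysosomal membrane holds the proton pump that acidifies the organelle. Of 32 membrane and pump genes 10 rose and 1, Laptm5, fell (7 and 0 with the 6 libraries alone; 5 to 10 rose without 1 library). Atp6v1e1, a stalk subunit of the pump, was 299, 311 and 329 in fl/fl and 560, 586 and 676 in KO (log2 fold change 0.95, SE 0.13, limma adjusted p = 2.4e-04). Atp6v1g1, another stalk subunit, was 290, 215 and 274 in fl/fl and 424, 409 and 463 in KO (0.74). Both passed throughout. The membrane glycoprotein gene Lamp2 rose by 0.49 but did not pass without any 1 of 4 libraries, and Laptm5, a lysosomal membrane protein of blood cells, fell by 0.78 with libraries that overlapped. Of 30 genes of the TFEB family and autophagy, 5 rose and none fell, or 16.7% called against 14.2% over all genes tested. With the 6 libraries alone 0 passed in limma, while 10 were higher and 3 lower at an unadjusted p under 0.05, and 0 to 6 rose without 1 library. Map1lc3b and Gabarap, which encode ubiquitin-like proteins of the autophagosome membrane, rose by 0.37 and 0.50.

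TFEB and its relatives bind an E box, CACGTG, within a longer lysosomal gene element. Shown here are the 4 genes of the hydrolase and membrane lists that rose and hold these letters in the promoter window, with the E box in capitals. Each stretch is 60 bases before the RefSeq start of the gene (GRCm38.p6), read 5′ to 3′ on the strand of the gene: Ctsd at chr7:142387893-142387952 (minus strand), Ctsl at chr13:64370711-64370770 (minus), Lgmn at chr12:102439109-102439168 (minus) and Atp6v1a at chr16:44139358-44139417 (minus).
Ctsd: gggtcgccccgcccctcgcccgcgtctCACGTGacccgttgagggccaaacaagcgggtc
Ctsl: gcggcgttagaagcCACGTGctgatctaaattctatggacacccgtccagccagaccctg
Lgmn: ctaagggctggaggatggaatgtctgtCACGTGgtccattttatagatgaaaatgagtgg
Atp6v1a: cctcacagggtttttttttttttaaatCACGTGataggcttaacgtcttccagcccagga
CACGTG reads the same on both strands and was looked for in the 250 bases before each start. It was in 1978 of 32851 promoter entries (6.02%) and in 914 of the 9157 tested genes that had an entry (9.98%). Among hydrolases with an entry it was in 10 of 29 tested and 3 of 8 that rose, and among membrane and pump genes in 5 of 26 tested and 1 of 8 that rose. No macrophage gene with an entry had it (0 of 16). A match is a description of the letters, not a bound site. The cysteine protease genes Ctsl and Lgmn, chosen here for their promoters after their values were seen, were 114, 169 and 111 against 350, 582 and 664, and 1.73, 4.23 and 4.70 against 26.5, 37.8 and 48.1. Atp6v1a was 142, 190 and 222 in fl/fl and 270, 299 and 282 in KO.

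Iron storage and export rose with the lysosome genes. Ftl1, the ferritin light chain that stores iron, was 3940, 3866 and 5026 in fl/fl and 7905, 9423 and 10097 in KO (log2 fold change 1.10, SE 0.11, limma adjusted p = 1.5e-05). Fth1, the ferritin heavy chain, was 2793, 4440 and 3818 in fl/fl and 5898, 8297 and 8001 in KO (1.016, SE 0.15). Slc40a1 (ferroportin), the only known iron exporter, was 84.1, 135 and 113 in fl/fl and 270, 338 and 320 in KO (1.496, SE 0.20, limma adjusted p = 2.1e-04). The 3 genes passed throughout, and in each the KO libraries lay together above the fl/fl libraries. Of 30 haem synthesis and iron genes 15 rose and 2 fell (6 and 1 with the 6 libraries alone; 7 to 21 rose without 1 library). The transferrin receptor gene Tfrc, which brings iron into the cell, rose from 571, 1164 and 629 to 1376, 2482 and 1707 (1.27). In Tfrc fl/fl replicate 2 was the highest of its group and KO replicate 1 the lowest of its group, as in the erythroid genes below. Tfrc did not pass with the 6 libraries alone (limma adjusted p = 0.0695).

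Early erythroid genes had higher and neutrophil primary granule genes lower group means in Tsc2 KO, and in both lists the groups came close or overlapped through the same 2 libraries. Of 33 early erythroid genes 15 rose and none fell, with a median log2 fold change of 1.47, but 0 passed in limma with the 6 libraries alone, where 20 were higher and 0 lower at an unadjusted p under 0.05. Between 4 (without KO replicate 2 or 3 or fl/fl replicate 3) and 24 (without fl/fl replicate 2) rose without 1 library. Car2 and Car1, carbonic anhydrases of erythroid progenitors, rose by 2.04 (SE 0.45) and 1.69 (SE 0.40). Car1 was 1149, 3255 and 2150 in fl/fl and 4082, 8452 and 7865 in KO. Blvrb, the haem catabolic enzyme biliverdin reductase B, was 317, 933 and 535 in fl/fl and 1312, 2429 and 2356 in KO (1.85). Gata1, the master factor of erythroid cells, was 138, 415 and 255 in fl/fl and 361, 651 and 611 in KO (1.10), and Epor, the erythropoietin receptor gene, 51.2, 238 and 134 and 216, 398 and 450 (1.51). In Gata1 and Epor the fl/fl replicate 2 was above the KO replicate 1. The summed level of the list was 6034, 19395 and 10253 in fl/fl and 21692, 42893 and 39404 in KO.

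Of 19 primary granule genes 11 fell and none rose (median -1.73), but 1 passed with the 6 libraries alone and 3 to 19 without 1 library. Mpo (myeloperoxidase) was 48343, 23511 and 52221 in fl/fl and 24793, 4820 and 7520 in KO. Elane (neutrophil elastase) was 13737, 6417 and 16283 in fl/fl and 6770, 1205 and 1897 in KO, and Prtn3 (proteinase 3) 5636, 2229 and 5146 against 2235, 369 and 679. In each of these 3 genes fl/fl replicate 2 lay just below KO replicate 1. Their limma adjusted p lay between 0.0455 and 0.0473 with 12 libraries and between 0.137 and 0.144 with the 6 libraries alone. Ms4a3, a membrane protein of granulocyte-monocyte progenitors, fell from 1956, 882 and 1482 to 775, 149 and 199 (log2 fold change -2.26) without overlap. The summed level of the list was 96450, 47058 and 101449 in fl/fl and 52935, 12650 and 17643 in KO. The fl/fl replicates 1 and 3 had the 2 highest granule sums and the 2 lowest erythroid sums, and KO replicates 2 and 3 the reverse, with fl/fl replicate 2 and KO replicate 1 between them in both.

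Later granulocyte and monocyte lists did not move as the primary granules did. Of 29 secondary granule and maturation genes 7 fell and none rose, but the median was 0.34. In limma 0 passed with the 6 libraries alone, and 4 were higher and 8 lower at an unadjusted p under 0.05 (2 to 11 fell without 1 library). Csf3r, the receptor of granulocyte colony-stimulating factor, was 195, 129 and 230 in fl/fl and 98.1, 19.3 and 43.0 in KO (log2 fold change -2.02). Pglyrp1, a peptidoglycan-binding granule protein, fell from 126, 77.0 and 142 to 63.6, 36.5 and 24.4 (-1.51), and Ltb4r1, a leukotriene B4 receptor, by 2.01 on the log2 scale. Of 24 monocyte genes 2 rose, Ctss and Psap, and 2 fell (median -0.85, and 1 to 10 fell without 1 library). That is 16.7% called, against 14.2% over all genes tested. Nr4a1, an orphan nuclear receptor needed by patrolling monocytes and induced early by many signals, fell from 186, 386 and 256 to 70.3, 115 and 42.2 (-1.90) and passed throughout. Its mean in the Raptor fl/fl libraries was 113.6, against 275.7 in Tsc2 fl/fl and 75.78 in Tsc2 KO. Of 7 phagocyte oxidase genes 1 fell, Ncf4, with libraries that overlapped, or 14.3% called against 14.2% over all genes tested.

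**Figure D3:**
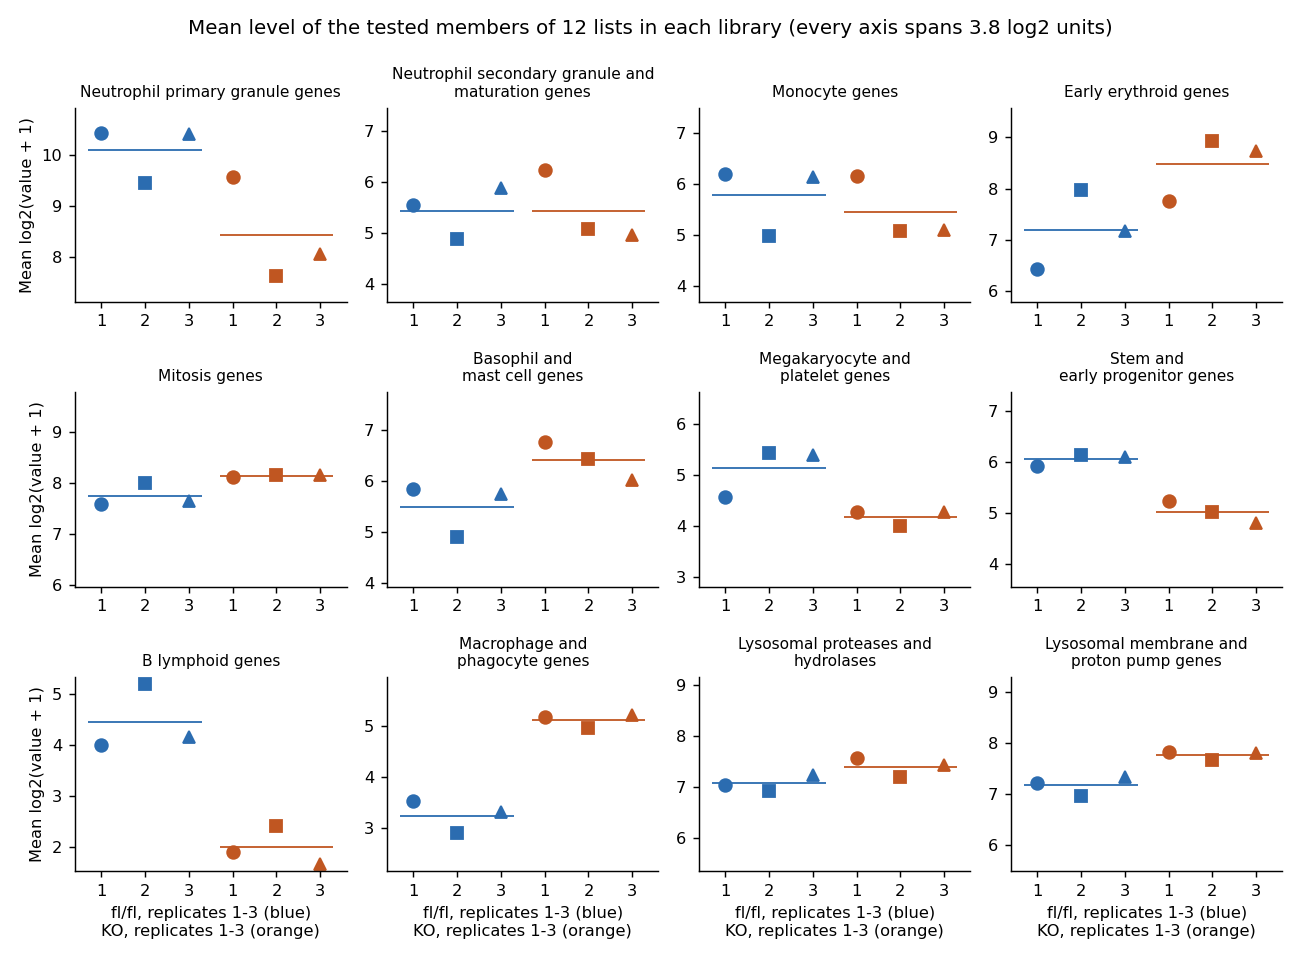
Mean log2 of the value plus 1 over the tested members of 12 lists in each library (fl/fl blue, KO orange, replicates 1 to 3 from left to right, lines at group means, every vertical axis spanning 3.8 log2 units). Macrophage, stem cell and B lymphoid genes leave a gap between the groups, while primary granule genes run from 10.42, 9.45 and 10.40 in fl/fl to 9.57, 7.63 and 8.07 in KO. The macrophage and B lymphoid lists include genes that met the filter on low values only with the group where they are high.

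Over a list of stem and early progenitor genes, all 3 KO libraries had lower mean levels than any fl/fl library. Of 35 tested 19 fell and 1 rose (9 and 0 with the 6 libraries alone; 10 to 20 fell without 1 library), with a median log2 fold change of -1.27. The list's mean log2 levels were 5.93, 6.13 and 6.10 in fl/fl and 5.23, 5.02 and 4.80 in KO. Eltd1, an adhesion receptor gene of endothelial and stem cells, was 319, 306 and 393 in fl/fl and 155, 57.8 and 88.9 in KO (-1.85, SE 0.26, limma adjusted p = 6.1e-04), and passed throughout. Cd48, a SLAM family surface protein, fell from 435, 355 and 335 to 312, 126 and 179 (-0.96) but did not pass without any 1 of 4 libraries. Cd34, the sialomucin used in the gate, was 1210, 701 and 1052 in fl/fl and 732, 199 and 273 in KO (-1.49, limma adjusted p = 0.0403), again with fl/fl replicate 2 below KO replicate 1.

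Of 10 sort gate genes tested 3 fell (Cd34, Ly6a and Flt3), none rose, and in limma 0 passed with the 6 libraries alone (3 lower at an unadjusted p under 0.05). The median log2 fold change of the list was -1.11. Kit, the receptor on which the gate was built, was 1012, 884 and 1052 in fl/fl and 1056, 1015 and 1281 in KO (limma adjusted p = 0.338). Fcgr3, which encodes the Fcγ receptor III of the gate, was 311, 44.0 and 279 in fl/fl and 247, 64.7 and 79.3 in KO (limma adjusted p = 0.698). Ly6a, the gene of Sca-1, for which the gate was negative, was 13.9, 14.4 and 18.8 in fl/fl and 6.63, 5.50 and 2.22 in KO, and Flt3 (CD135) was 78.9, 72.8 and 52.7 and 34.5, 39.9 and 20.7. The interleukin 7 receptor gene Il7r (CD127) was at 8.89 or below in every library.

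Transcription factors of myeloid cells fell in part. Of 39 tested 14 fell and none rose (5 and 0 with the 6 libraries alone; 9 to 21 fell without 1 library), with a median of -0.81. Myb, which keeps progenitors immature, was 1054, 691 and 894 in fl/fl and 474, 371 and 456 in KO (log2 fold change -1.01, SE 0.16, limma adjusted p = 9.0e-04), and passed throughout. Etv6 fell from 420, 311 and 425 to 288, 141 and 109, Fli1 from 362, 289 and 379 to 263, 98.4 and 130, and Runx1 from 334, 305 and 397 to 273, 170 and 162. These 3 factors act in stem cells and megakaryocytes. Fli1, Etv6 and Runx1 did not pass with the 6 libraries alone (limma adjusted p = 0.079, 0.079 and 0.062).

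Megakaryocytes share a progenitor with erythroid cells and shed platelets. Of 25 megakaryocyte and platelet genes tested 11 fell and none rose (7 and 0 with the 6 libraries alone; 9 to 13 without 1 library), with a median of -1.07. Pf4, the platelet chemokine platelet factor 4, was 124, 311 and 235 in fl/fl and 61.0, 39.2 and 57.8 in KO (log2 fold change -1.99, SE 0.31). Itga2b (CD41), a platelet integrin chain, was 181, 278 and 198 in fl/fl and 84.9, 86.0 and 62.2 in KO (-1.47, SE 0.22, limma adjusted p = 5.0e-04). Rap1b, the small GTPase that activates platelet integrins, fell from 332, 228 and 338 to 172, 160 and 150 (-0.88). The 3 genes passed throughout, with KO replicate 1 among the other KO libraries.

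Some basophil and mast cell genes rose in KO. Of 25 tested 8 rose and none fell (2 and 0 with the 6 libraries alone; 4 to 6 without 1 library), with a median of 0.72. The summed level of the list overlapped between the groups, at 9153, 5211 and 8448 in fl/fl and 14140, 7750 and 6984 in KO, with KO replicate 1 the highest. Mcpt8, a basophil granule protease, was 464, 191 and 239 in fl/fl and 2724, 1133 and 982 in KO (log2 fold change 2.38, SE 0.47, limma adjusted p = 0.0133). Prss34, another basophil protease, was 601, 212 and 594 in fl/fl and 2226, 1464 and 1027 in KO (1.82). Cyp11a1, a steroid-forming enzyme found in basophils and mast cells, was 31.2, 7.61 and 26.3 in fl/fl and 186, 74.96 and 68.2 in KO (2.34). Il1rl1, the receptor of interleukin 33, rose by 1.26. None of these 4 passed with the 6 libraries alone (limma adjusted p from 0.0503 to 0.0812), and Prss34 did not pass in any of the 6 fits without 1 library (up to 0.134). The Raptor fl/fl mean of Prss34, 2255.3, was above its Tsc2 KO mean of 1572.3. Those of Mcpt8 (935.4) and Cyp11a1 (71.99) lay between the Tsc2 fl/fl means (298.0 and 21.72) and the Tsc2 KO means (1612.9 and 109.6). That of Il1rl1, 66.78, was near the 62.99 of Tsc2 fl/fl. The mast cell tryptase gene Tpsab1 was listed at 0 in the 3 fl/fl libraries and at 5.97, 95.6 and 16.3 in KO, with KO replicate 2 well above the others, and passed the filter on low values only through the KO libraries.

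Most of the B lymphoid genes tested fell in Tsc2 KO. Of 26 B lymphoid genes tested 17 fell and none rose (13 and 0 with the 6 libraries alone; 16 to 18 without 1 library), with a median of -2.51. The summed level of the list, 2214, 3966 and 2394 in fl/fl and 2440, 3849 and 2952 in KO, overlapped between the groups. Most of it came from Cd24a, a surface glycoprotein gene also found outside the B lineage, which was 1225, 2656 and 1556 in fl/fl and 2143, 3632 and 2764 in KO (limma adjusted p = 0.084) and is named after its values were seen. Cd79a, a signalling chain of the B cell receptor, was 99.7, 158 and 58.3 in fl/fl and 0.663, 6.88 and 0.741 in KO (log2 fold change -5.12, SE 0.53). Ms4a1 (CD20) was 52.9, 48.2 and 37.6 in fl/fl and 1.99, 0 and 0 in KO, and Ebf1, the factor that commits B cells, 18.2, 33.0 and 24.5 against 0, 1.38 and 0. The chemokine receptor gene Ccr7, which homes lymphocytes to lymph nodes, was 90.2, 107 and 67.7 in fl/fl and 4.64, 0.688 and 0.741 in KO. The groups left a wide gap in all 4 genes, and all 4 passed throughout. They met the filter on low values only with the fl/fl libraries, however, and are therefore to be read by their values rather than by the test. The count and the median of the list include these genes. In the Raptor line, where the controls are separate libraries, the same 26 genes had a median of -2.23 and 17 fell.

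Of 15 T and NK cell genes 7 fell and 1 rose, and in limma 0 passed with the 6 libraries alone (8 lower and 1 higher at an unadjusted p under 0.05; 2 to 7 fell without 1 library). The T cell receptor gene Cd3e was at 0 in all 6 libraries. Il2rb and Ccl5, genes of NK and memory T cells, were highest in fl/fl replicate 2: Il2rb was 6.07, 56.7 and 3.76 in fl/fl, Ccl5 was 3.47, 50.8 and 21.6, and both were at 1.38 or below in every KO library. The coreceptor gene Cd4, also found on some myeloid cells, rose from 13.9, 0 and 3.76 to 41.8, 39.9 and 81.5. Of 16 dendritic cell and MHC class II genes 7 fell and 1 rose (2 and 0 with the 6 libraries alone; 3 to 7 fell without 1 library). Cd74, the invariant chain of MHC class II, was 325, 909 and 374 in fl/fl and 78.9, 207 and 56.3 in KO (log2 fold change -2.29), highest in replicate 2 of both groups. H2-DMa, which loads peptides on MHC class II, fell from 283, 266 and 368 to 187, 107 and 129 (-1.14) and passed throughout. How far such cells contribute to other changes was not tested.

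Among interferon response genes, Ifitm1 had the smallest p value of the named genes. It encodes an interferon-induced membrane protein and was 342, 228 and 355 in fl/fl and 25.2, 26.8 and 20.7 in KO (log2 fold change -3.60, SE 0.19, limma adjusted p = 2.9e-09). The lowest fl/fl library was far above the highest KO library, and the gene passed throughout. Its neighbours in the family moved less: Ifitm2 was 547, 403 and 660 in fl/fl and 369, 215 and 243 in KO (-0.97), and Ifitm3 195, 131 and 241 against 119, 71.5 and 53.3 (-1.24). Of 37 interferon response genes 6 fell and 1, the GTPase gene Irgm1, rose (2 and 0 with the 6 libraries alone), with a median of 0.07. The share called was 18.9%, against 14.2% over all genes tested. Klk8, a secreted serine protease outside these lists, fell from 49.4, 58.4 and 71.5 to 6.63, 2.06 and 6.67 (-3.41) and also passed throughout.

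Early response and feedback genes of the ERK pathway fell in part. Of 28 tested 7 fell and 1 rose (3 and 0 with the 6 libraries alone; 2 to 8 fell without 1 library). Dusp2, a phosphatase that switches off ERK, was 340, 247 and 251 in fl/fl and 59.7, 63.3 and 42.2 in KO (log2 fold change -2.33, SE 0.27, limma adjusted p = 7.1e-05). Myc, the growth-promoting transcription factor, was 849, 732 and 775 in fl/fl and 516, 376 and 406 in KO (-0.87, SE 0.13, limma adjusted p = 5.0e-04). Both passed throughout with a gap between the groups. For Dusp2 the mean of the Raptor fl/fl libraries was 62.5, near the 55.05 of Tsc2 KO and below the 279.3 of Tsc2 fl/fl. For Myc the 2 control groups were alike, at 764.1 in Raptor fl/fl and 785.2 in Tsc2 fl/fl. Why the controls differed for Dusp2 was not tested. Of 11 genes of the Myc network 1, Myc, fell and 1 rose, its antagonist Mxd1 (0.78), or 18.2% against 14.2% over all genes tested. Mxd1 did not pass with the 6 libraries alone (limma adjusted p = 0.079). It also did not pass without KO replicate 2 or 3 or fl/fl replicate 2 or 3 (up to 0.2). Of 21 cytokine signalling feedback genes 4 fell and 1, the kinase gene Jak1, rose (1 and 0 with the 6 libraries alone). Socs3, which shuts down the receptors that signal through gp130 and the G-CSF receptor, was 13.9, 29.6 and 19.8 in fl/fl and 5.303, 7.57 and 4.44 in KO (-1.67). Socs2, an inhibitor of growth hormone signalling, was 18.2, 4.23 and 5.64 in fl/fl and 0, 2.75 and 0 in KO. Socs2 met the filter on low values only with the fl/fl libraries. Of 30 cytokine receptor genes 7 fell and 2 rose (2 and 0 with the 6 libraries alone; 5 to 13 fell without 1 library). Il2rg, the chain shared by the receptors of interleukin 2 and 7, fell from 166, 169 and 187 to 129, 70.2 and 78.5 (-0.95), and Tnfrsf1a, the tumour necrosis factor receptor, from 234, 179 and 199 to 133, 33.0 and 43.7 (-1.79).

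mTORC1 feeds back on PI3K and, through AKT, on the FOXO factors. Of 30 genes of PI3K signalling and FOXO targets 10 fell and none rose (1 and 0 with the 6 libraries alone; 2 to 15 without 1 library), with a median of -0.43. Cited2, a FOXO target and transcription co-regulator, was 183, 162 and 217 in fl/fl and 120, 83.9 and 68.9 in KO (log2 fold change -1.06, SE 0.21), and passed throughout. Pik3cg, the PI3K of G-protein-coupled receptors, fell from 361, 278 and 355 to 245, 88.7 and 113 (-1.28), and Igf1r, the insulin-like growth factor receptor, by 0.68. Of 31 chemokine and adhesion receptors 10 fell and 1, Itga5, rose (2 and 0 with the 6 libraries alone; 3 to 16 fell without 1 library), among them the integrin gene Itgal, which fell from 273, 157 and 214 to 121, 50.9 and 53.3 (-1.58).

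Cytosolic tRNA synthetases charge transfer RNAs with their amino acids. Of 20 cytosolic tRNA synthetase genes 10 rose and none fell (4 and 0 with the 6 libraries alone; 2 to 12 without 1 library), with a median of 0.45. Hars, for histidine, was 323, 465 and 397 in fl/fl and 573, 796 and 787 in KO (log2 fold change 0.86, SE 0.16). Sars, for serine, was 299, 333 and 315 in fl/fl and 418, 555 and 619 in KO (0.73, SE 0.15), and Gars, for glycine, 484, 598 and 550 and 688, 856 and 921 (0.59). Of 32 amino acid synthesis genes 6 rose and 1 fell (4 and 0 with the 6 libraries alone; 3 to 7 rose without 1 library). Asns (asparagine synthetase) was 204, 455 and 265 in fl/fl and 676, 1217 and 1101 in KO (1.73, SE 0.26, limma adjusted p = 9.2e-04). Aldh18a1, which starts proline synthesis, rose from 203, 280 and 196 to 354, 475 and 476 (0.95), and Mthfd1, an enzyme of the folate cycle, by 0.97. Hars, Sars, Asns and Aldh18a1 passed throughout, with no overlap. Of 22 amino acid transporter genes 2 fell and 1, Slc7a7, rose, or 13.6% called against 14.2% over all genes tested. With the 6 libraries alone 0 passed in limma (7 higher and 2 lower at an unadjusted p under 0.05), and without 1 library 0 to 5 rose and 0 to 4 fell. Slc7a7 passed only in the fit without KO replicate 1. Of 39 genes of the ATF4 and unfolded protein responses 6 rose and 4 fell (3 and 1 with the 6 libraries alone; 0 to 6 rose and 1 to 16 fell without 1 library), with a median of -0.27. Ddit3 (CHOP), a stress factor, was 111, 65.1 and 68.7 in fl/fl and 133, 183 and 140 in KO (0.92).

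ATF4, the factor of the amino acid response, and its C/EBP partners bind a composite element. The letters TGATGNAA were looked for on both strands of the same 250 bases, and the 3 genes of these 2 lists that rose and hold them are shown with the match in capitals, 60 bases each before the RefSeq start (GRCm38.p6), on the strand of the gene. Asns lies at chr6:7693210-7693269 (minus strand), Aars at chr8:111033704-111033763 (plus) and Gars at chr6:55037941-55038000 (plus).
Asns: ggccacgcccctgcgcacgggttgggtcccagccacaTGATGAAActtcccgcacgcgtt
Aars: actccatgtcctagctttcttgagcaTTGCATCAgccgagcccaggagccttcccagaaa
Gars: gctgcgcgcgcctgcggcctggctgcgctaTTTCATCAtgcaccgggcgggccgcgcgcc
In Aars, for alanine, and Gars the match is on the opposite strand. The letters were in 1134 of 32851 promoter entries (3.45%) and in 228 of 9157 tested genes with an entry (2.49%). They were in 3 of 12 synthetase genes and 3 of 26 amino acid synthesis genes tested that had an entry. Of the genes that rose, 2 of 6 and 1 of 6 had them. Aars, named for its promoter after its values were seen, is 1 of the 10 synthetase genes that rose.

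Some lipid synthesis genes rose, with 17.9% of sterol and 36% of fatty acid synthesis genes called against 14.2% over all genes tested. Of 28 sterol synthesis genes 5 rose and none fell (median 0.57), and of 25 fatty acid synthesis genes 8 rose and 1 fell (median 0.32), with 0 and 1 higher in limma with the 6 libraries alone (11 of the sterol genes at an unadjusted p under 0.05). Without 1 library 1 to 5 sterol and 1 to 8 fatty acid genes rose. Insig1, which holds SREBP back in the endoplasmic reticulum and is itself an SREBP target, was 58.1, 74.5 and 106 in fl/fl and 163, 179 and 126 in KO (log2 fold change 0.99). Srebf1, the lipid synthesis factor, rose from 111, 210 and 202 to 258, 314 and 311 (0.80). Acsl5, which activates fatty acids, rose from 625, 829 and 682 to 937, 1145 and 1135 (0.59). Plin2, which coats lipid droplets and sits on the macrophage list, was 242, 258 and 232 in fl/fl and 458, 407 and 450 in KO (0.84, SE 0.16, limma adjusted p = 0.00325), and passed throughout. Ephx2 (soluble epoxide hydrolase), which breaks down lipid epoxides, was 22.5, 19.5 and 5.64 in fl/fl and 139, 252 and 207 in KO (3.72) and passed throughout.

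Of glycolysis and hypoxia genes 15.6% were called, near the 14.2% over all genes tested. Of pentose phosphate and antioxidant genes 25% were called. Of 32 glycolysis and hypoxia genes 4 fell and 1, the phosphofructokinase gene Pfkm, rose (1 and 0 with the 6 libraries alone; 1 to 10 fell without 1 library). Ndrg1, a stress and hypoxia gene, was 91.9, 113 and 137 in fl/fl and 41.1, 38.5 and 36.3 in KO (log2 fold change -1.52, SE 0.20, limma adjusted p = 2.3e-04), and passed throughout. Hk2 (hexokinase 2) fell from 81.5, 42.3 and 72.4 to 55.0, 15.8 and 27.4, and Gpi1 (glucose-6-phosphate isomerase) by 0.86, both with libraries that overlapped. Of 28 pentose phosphate and antioxidant genes 6 rose and 1, the glutathione reductase gene Gsr, fell (1 and 0 with the 6 libraries alone; 2 to 9 rose without 1 library). Taldo1 (transaldolase) was 1350, 1299 and 1486 in fl/fl and 1688, 1959 and 1947 in KO (0.43). Of 28 purine and pyrimidine genes 2 rose and 4 fell. With the 6 libraries alone 0 rose in limma (6 higher at an unadjusted p under 0.05) and 1 fell, and without 1 library 0 to 5 rose and 1 to 6 fell. Adssl1, a purine nucleotide enzyme, fell from 571, 268 and 528 to 185, 86.7 and 113 (-1.82) and passed throughout.

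Among respiratory and protein quality control genes the share called was near or below the 14.2% over all genes, other than for the proteasome (28.2%). Of 75 nuclear oxidative phosphorylation genes 9 rose and none fell (4 and 0 with the 6 libraries alone; 2 to 9 without 1 library), with a median log2 fold change of 0.22. Atp5b, the catalytic subunit of ATP synthase, was 3704, 4336 and 4327 in fl/fl and 5500, 5864 and 5934 in KO (0.49, SE 0.09, limma adjusted p = 0.00328), and passed throughout. Of 76 mitochondrial ribosomal protein genes 4 rose and none fell (2 with the 6 libraries alone; 0 to 6 without 1 library). Of 39 proteasome genes 7 rose and 4 fell, with 0 in either direction in limma with the 6 libraries alone (17 higher and 4 lower at an unadjusted p under 0.05; 0 to 9 rose and 0 to 4 fell without 1 library). Psmb8, an immunoproteasome subunit, was 1326, 936 and 1684 in fl/fl and 956, 431 and 398 in KO (-1.22), with libraries that overlapped. Of 30 chaperone genes 4 rose and none fell (2 to 10 without 1 library). Hsp90aa1, the inducible HSP90, was 2725, 3409 and 2914 in fl/fl and 4200, 4397 and 4216 in KO (0.51, SE 0.10, limma adjusted p = 0.0046) and passed throughout.

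mTORC1 controls the translation of ribosomal protein mRNAs. Of 78 cytosolic ribosomal protein genes 0 passed in limma with 12 libraries or with 6, 2 were lower at an unadjusted p under 0.05 in either fit, and 7 fell without fl/fl replicate 2. Rplp0, a protein of the ribosomal stalk, was 10688 ± 533 (SD, n = 3) in fl/fl and 10925 ± 649 in KO (log2 fold change 0.03, SE 0.08). Of 44 nucleolar genes of ribosome assembly 2 rose, Bysl and Dcaf13, and none fell, or 4.55% called against 14.2% over all genes tested. With the 6 libraries alone 0 passed in limma (8 higher at an unadjusted p under 0.05), 0 to 8 rose without 1 library, and neither gene passed without KO replicate 2 or 3 or fl/fl replicate 1 or 3. Of 41 translation factors 4 rose and 1 fell, or 12.2% called against 14.2% over all genes tested. With the 6 libraries alone 0 rose in limma (11 higher at an unadjusted p under 0.05) and the same 1 gene fell, and 0 (without KO replicate 2 or 3) to 8 (without fl/fl replicate 2) rose without 1 library. Eif4a2, an RNA helicase of cap-dependent initiation, was 862, 724 and 718 in fl/fl and 530, 464 and 465 in KO (-0.66, SE 0.11, limma adjusted p = 0.00138), and passed throughout.

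**Figure D4:**
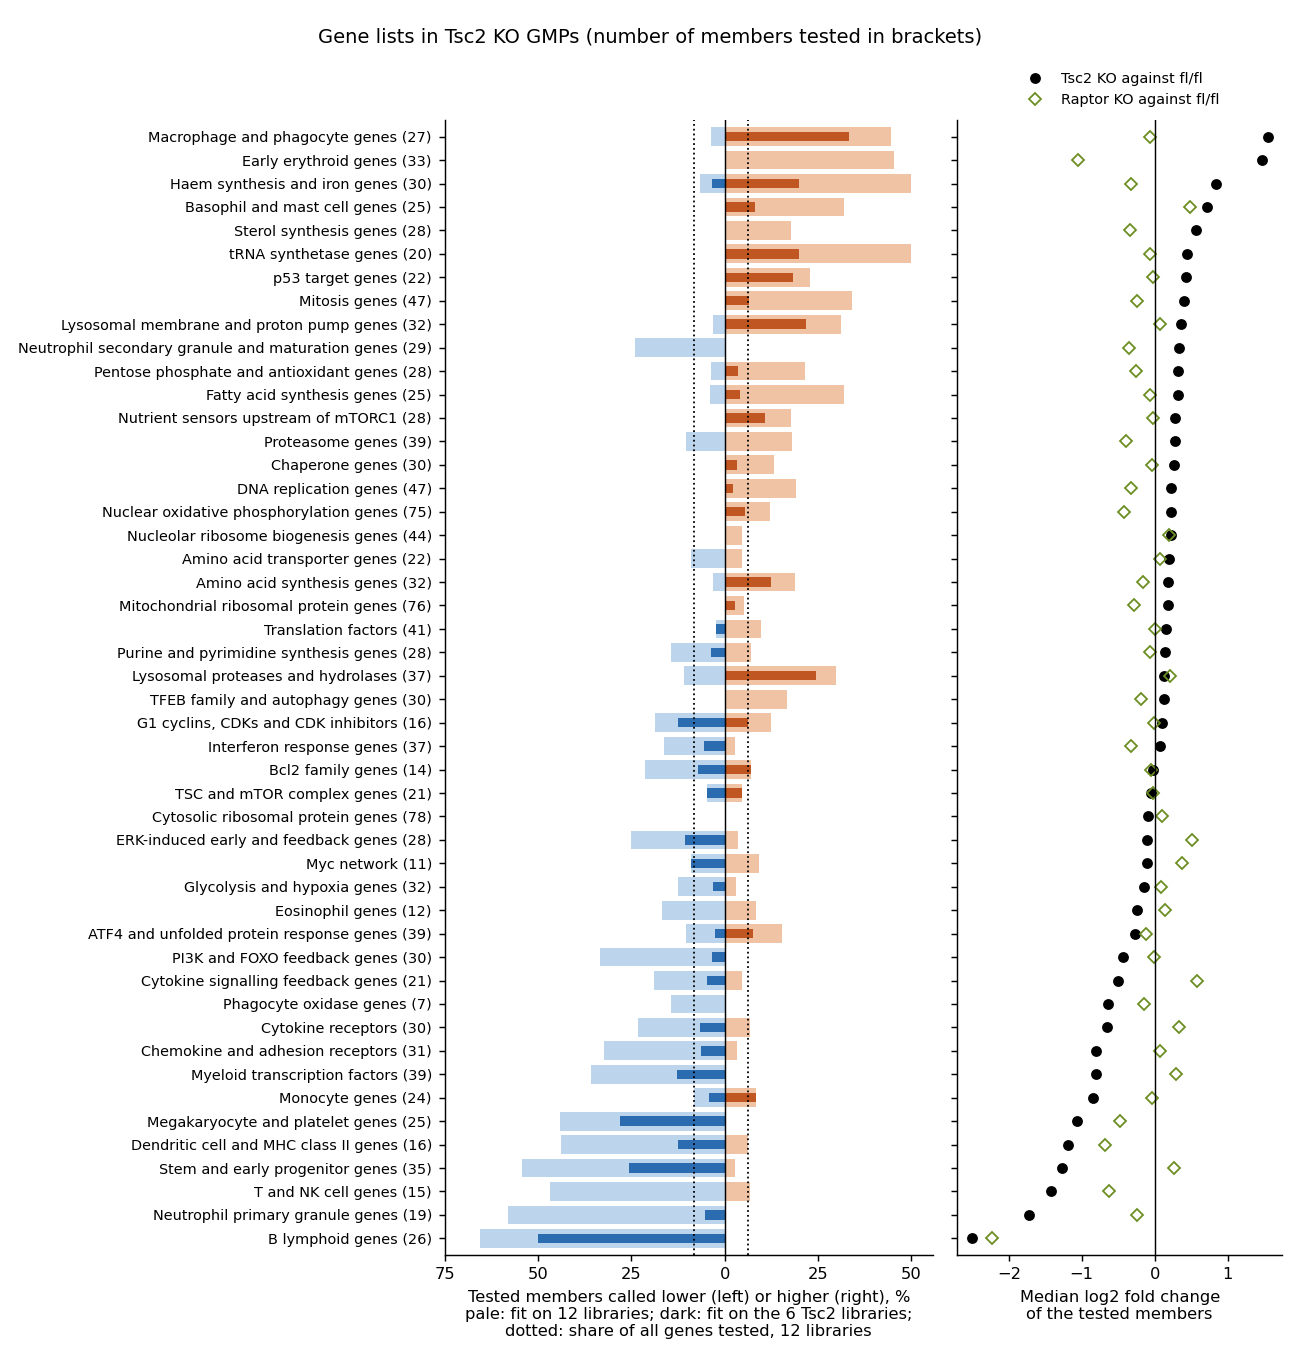
Left, share of the tested members of each gene list that was called higher (right of 0) or lower (left of 0) in Tsc2 KO, pale for the fit on 12 libraries and dark for the 6 Tsc2 libraries alone, with dotted lines at 6.13% and 8.11%, the shares over all genes tested. Right, median log2 fold change in the Tsc2 line (black) and in the Raptor line (open), from 1.55 for macrophage to -2.51 for B lymphoid genes in the Tsc2 line. Both of these lists include genes that met the filter on low values only with the group where they are high.

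Part of the mitosis and DNA replication genes rose, with 34% and 19.1% called against 14.2% over all genes tested. Of 47 mitosis genes 16 rose and none fell (3 and 0 with the 6 libraries alone; 3 to 26 without 1 library), with a median of 0.40, and of 47 DNA replication genes 9 rose and none fell (1 and 0; 2 to 17). Ube2c, which drives the anaphase-promoting complex, was 330, 497 and 499 in fl/fl and 664, 838 and 913 in KO (log2 fold change 0.88, SE 0.16, limma adjusted p = 0.00265). Ccnb1 (cyclin B1) was 423, 761 and 561 in fl/fl and 912, 979 and 924 in KO (0.73), and Fen1, the flap nuclease of lagging strand synthesis, 448, 759 and 576 and 804, 1087 and 1018 (0.73). Ube2c passed throughout. Fl/fl replicate 2 was the highest of its group in Ccnb1 and Fen1, as it was in the erythroid genes. Among G1 regulators 2 of 16 rose and 3 fell: Ccnd2 (cyclin D2) was 378, 377 and 388 in fl/fl and 243, 138 and 118 in KO (-1.26, SE 0.20, limma adjusted p = 0.00112), while Ccnd3 (cyclin D3) was 538, 742 and 465 in fl/fl and 754, 1040 and 916 in KO (0.65). Btg1, an antiproliferative gene, fell from 207, 220 and 211 to 131, 102 and 90.4 (-0.99). Ccnd2 and Btg1 passed throughout, and Ccnd3 did not pass without any 1 of 4 libraries.

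Targets of p53 rose in a few cases, and Bcl2 family genes went both ways. Of 22 p53 targets 5 rose and none fell (4 and 0 with the 6 libraries alone; 3 to 7 without 1 library), with a median of 0.43. Bax, a pore-forming killer of the Bcl2 family, was 142, 156 and 165 in fl/fl and 217, 311 and 303 in KO (log2 fold change 0.83, SE 0.17, limma adjusted p = 0.00515). Ccng1 (cyclin G1) was 297, 257 and 235 in fl/fl and 361, 492 and 491 in KO (0.76). Sesn2 (sestrin 2), which holds mTORC1 back when leucine is scarce and is also an ATF4 target, was 14.7, 22 and 5.64 in fl/fl and 47.1, 70.2 and 79.3 in KO (2.28). Bax and Ccng1 passed throughout, while Sesn2 did not pass without any 1 of 4 libraries (limma adjusted p up to 0.0954). Of 14 Bcl2 family genes 1, Bax, rose and 3 fell (1 and 1 with the 6 libraries alone; 1 to 3 fell without 1 library), with a median of -0.02. The survival gene Bcl2 was 152, 88.0 and 147 in fl/fl and 68.9, 23.4 and 34.8 in KO (-1.68, SE 0.31), without overlap.

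The Tsc2 and Raptor knockouts were then set side by side, each against its own controls. In the Raptor line 479 of the 12097 genes passed (3.96%). The 143 genes that passed in both lines are 8.3% of those of the Tsc2 line and 29.9% of those of the Raptor line. Of these 60 changed in the same direction, 20 higher and 40 lower, and 83 in opposite directions. The difference between the 2 effects was tested as an interaction, and 1676 genes passed (13.9%), 880 with the Tsc2 effect above and 796 below. Ifitm1 fell in Tsc2 KO and had a log2 fold change of 1.56 in the Raptor line, a difference of -5.16 (SE 0.27, limma adjusted p = 2.3e-09). For Myc, at 0.71 in the Raptor line, the difference was -1.58, and for Dusp2, at 0.40, it was -2.73. The Dusp2 controls differed between the lines, with means of 279.3 in Tsc2 fl/fl and 62.5 in Raptor fl/fl. Slc40a1 fell by 1.59 in the Raptor line, a difference of 3.08 (limma adjusted p = 1.3e-05). Asns had a log2 fold change of -0.64 there and a difference of 2.37, and Blvrb -1.25 and 3.10.

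Among lists, early erythroid genes separated the knockouts most: in 23 of 33 the Tsc2 effect lay above the Raptor effect and in none below. The same held for 36 of 75 oxidative phosphorylation genes, 23 of 39 proteasome genes, 21 of 47 mitosis genes and 8 of 20 tRNA synthetase genes, again with none below. The Tsc2 effect lay below in 15 of 35 stem cell genes, 12 of 39 myeloid transcription factors and 8 of 21 cytokine feedback genes, and above in 1 each. Among 27 macrophage genes the Tsc2 effect lay above in 7 and below in none, but several of the genes that led the rise did not pass. The Raptor line had a mean Gpnmb of 1.87 in its fl/fl and 384 in its KO libraries, and its difference between the effects was 0.95 (limma adjusted p = 0.485). Lgals3 had log2 fold changes of 3.84 and 2.92 (limma adjusted p of the difference 0.34), Ctss of 1.85 and 1.74 (0.853) and Psap of 0.90 and 1.22 (0.337). For Ctsb and Ctsd the Tsc2 effect lay above, by 0.87 and 0.89 (limma adjusted p = 0.00507 and 0.00188). For C1qb, which met the filter on low values only with the Tsc2 KO libraries, the difference was 4.08. A difference that does not pass this test is not shown to be absent.

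**Figure D5:**
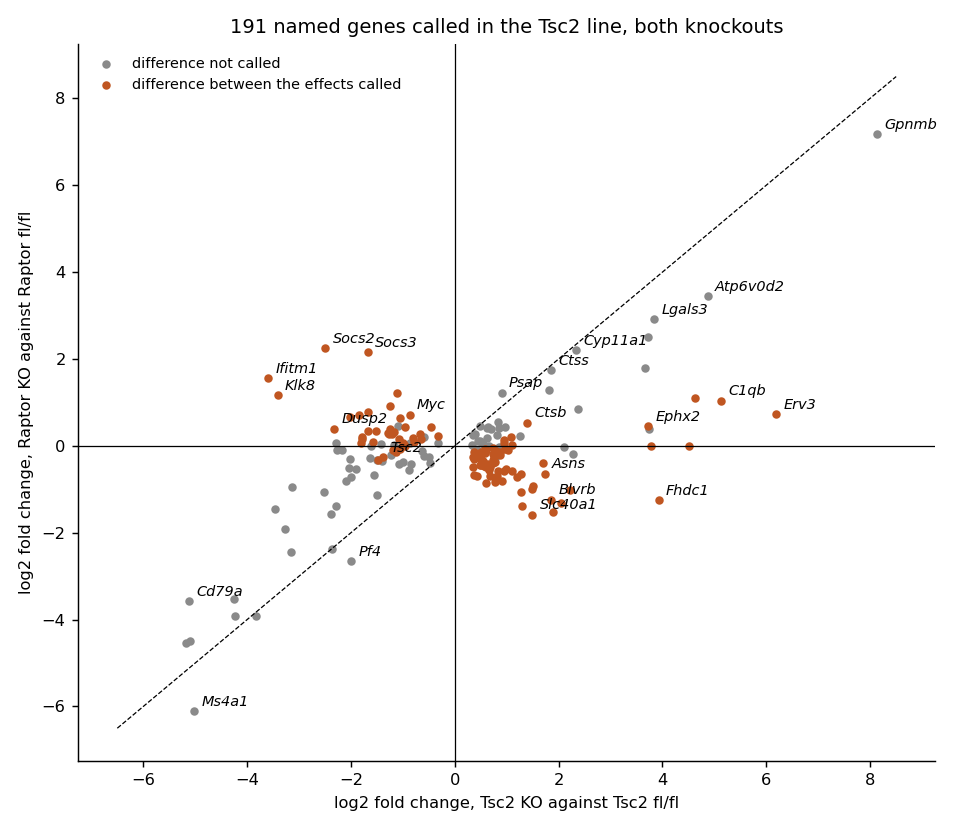
Log2 fold change in the Tsc2 line (horizontal) against that in the Raptor line (vertical) for the 191 named genes called in the Tsc2 line, orange where the difference between the effects was called and the dashed line where both are equal. Gpnmb lies near the line at 8.13 and 7.18, while Ifitm1 lies at -3.60 and 1.56.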

How the data were processed

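RNA from sorted GMPs was sequenced as SmartSeq2 libraries, 3 for each of Tsc2 fl/fl, Tsc2 KO, Raptor fl/fl and Raptor KO. Per the submitters' processing notes, the tools were TopHat2 2.0.10, Cufflinks 2.2.1, Cuffnorm and BWA. For the build of the genome, nothing is stated in these sources. The deposited values are a signal: the fragment number of a gene after division by the size factor of its library. Near-identical and overlapping genes may share fragments. Libraries were grouped by title.

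Genes with a value of 1 or more in at least 3 of the 6 Tsc2 libraries were tested with limma 3.58.1 (R 4.3.3) on log2(value + 1), over the 12 libraries in 4 groups, with a trended, robust prior and Benjamini-Hochberg adjustment over all 12097 genes. Fold changes are on this scale, which understates changes of low genes. The test was checked on simulated data. Named genes were Tsc2, the sort gate genes, the 12 highest and 12 lowest non-overlapping fold changes, the 8 most abundant called genes in each direction and up to 4 called genes of each list. Members, lists and tests were chosen with earlier results of these data known. Promoter sequences are from RefSeq (GRCm38.p6).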

Additional observations from a re-analysis of the deposited data

Results flagged for a closer look

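For the genes below the effect in the Tsc2 line differed from that in the Raptor line (limma interaction, adjusted over all genes). Each value is the log2 fold change of Tsc2 KO minus that of Raptor KO, each against its own controls, 3 libraries a group, and genes with a group at 0 depend on the value added before the log. Erv3, Tpsab1, C1qb, Phlda2 and Fhdc1 met the filter on low values only with the Tsc2 KO libraries. Socs2 met it only with the Tsc2 fl/fl libraries. For these genes the difference is given as a value and not as support. Tsc2 itself differed by -1.11.

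Among lysosome and phagocyte genes and others of the steepest rises the difference was 0.87 for Ctsb, 0.89 for Ctsd, 3.41 for Ctse, 0.82 for Atp6v1e1, 0.94 for Atp6v1g1, -0.87 for Laptm5, 4.08 for C1qb, 5.46 for Erv3, 3.52 for Phlda2, 5.17 for Fhdc1, 0.51 for Map1lc3b and 0.69 for Gabarap. Iron and erythroid genes differed by 1.07 (Ftl1), 1.11 (Fth1), 3.08 (Slc40a1), 1.92 (Tfrc), 3.35 (Car2), 2.09 (Car1), 3.10 (Blvrb), 1.69 (Gata1) and 2.44 (Epor).

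Myeloid, stem cell and megakaryocyte genes mostly differed downwards: Csf3r by -2.69, Eltd1 by -2.57, Cd48 by -1.39, Flt3 by -2.33, Myb by -1.07, Etv6 by -1.48, Fli1 by -1.50, Runx1 by -0.98, Itga2b by -1.16 and H2-DMa by -1.0. The mast cell gene Tpsab1 differed by 4.50. The interferon-induced genes Ifitm1, Ifitm2 and Ifitm3 differed by -5.16, -0.98 and -2.15, and Klk8 by -4.58.

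Signalling genes differed by -2.73 (Dusp2), -1.58 (Myc), -3.83 (Socs3), -4.74 (Socs2), 0.94 (Jak1), -0.94 (Il2rg), -2.00 (Tnfrsf1a), -0.99 (Cited2), -1.58 (Pik3cg), -0.94 (Igf1r), -1.67 (Itgal) and 0.88 (Eif4ebp1).

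Metabolic genes differed by 1.01 (Hars), 0.78 (Sars), 0.72 (Gars), 2.37 (Asns), 1.54 (Aldh18a1), 1.05 (Mthfd1), 2.68 (Slc7a7), 1.72 (Ddit3), 1.52 (Insig1), 0.92 (Srebf1), 0.69 (Acsl5), 3.27 (Ephx2), -1.87 (Ndrg1), 1.13 (Taldo1), -1.88 (Adssl1) and 0.65 (Atp5b). Genes of protein synthesis and folding differed by 0.66 (Hsp90aa1), -0.38 (Rplp0), 1.09 (Bysl), 0.74 (Dcaf13) and -0.81 (Eif4a2). Cell cycle and survival genes differed by 1.08 (Ube2c), 1.05 (Ccnb1), 1.12 (Fen1), -1.54 (Ccnd2), 1.2 (Ccnd3), 1.39 (Bax), 1.03 (Ccng1) and -2.46 (Bcl2).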

How the results depend on the processing

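Of the 12097 genes, 1722 passed. Without the mean-variance trend 1099 passed (415 higher), and with the 6 Tsc2 libraries alone 471 (233 higher and 238 lower). Leaving out 1 Tsc2 library at a time gave 628 to 2539 genes, 225 to 1076 higher and 403 to 1552 lower, and the genes that differed between the Tsc2 and Raptor effects numbered 933 to 2558. That number was 834 without the trend, against 1676. Scaling to a common total gave 1674 genes, 37.5% of them higher against 43.0%. Of 191 named genes that passed, 82 passed in every fit without 1 library, and none changed direction in any alternative run. Tsc2 passed in every alternative, at -1.45 to -1.28. A fit without the replicate 2 libraries, which carry Y-linked transcripts, gave 1330 genes. With the replicate number as a block 2532 genes passed, 1126 of them higher, and 2251 with the 6 Tsc2 libraries alone. After removal of the group means, same-numbered libraries of the 2 groups correlated at 0.243, 0.278 and -0.035. Differently numbered libraries correlated at -0.327 to 0.122. The labels do not say whether the numbers pair the libraries, and these values cannot decide it. The main fit used no pairing. A limma fit with voom weights, on values rounded to whole fragments, gave 1557 genes and kept 173 of the 191 named genes. Other count-based tests were not run, because not all values are whole multiples of 1 fragment. Depth limits genes of few fragments, such as those listed at 0 in fl/fl. The cause of these differences was not tested.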
